A study of Mus musculus with 18 samples.

Results

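Immediate early genes are the genes a cell switches on within minutes of a growth factor, serum or stress signal, before any new protein is made. The 10 described here are Fos, Fosb, Jun and Junb, which encode subunits of the transcription factor AP-1, Atf3, a partner and repressor of the same family, Egr1 and Egr2, zinc finger factors, Ier2 and Ier3, small immediate early response proteins, and Dusp1, a phosphatase that switches MAP kinases off. They were taken by gene symbol from the table of RNA counts, in which all 10 of them were found among 24116 genes. All 10 also passed the filter on low counts, which left 14901 genes to be tested.

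The RNA came from 18 libraries of 129S6/SvEvTac mouse embryonic stem (ES) cells grown in serum with leukemia inhibitory factor. Wild-type cells gave 8 libraries. Cells without Snf2h (gene symbol Smarca5), the ATPase of the ISWI chromatin remodelling complexes, gave 5 libraries, called ko here. Ko cells that again expressed wild-type Snf2h (the wild-type add-back) gave 3 libraries, and ko cells with an ATPase-mutant Snf2h (the mutant add-back) gave 2, so both add-back groups carry the deletion too. Wild-type cells and the wild-type add-back were kept on gelatin, whereas the ko line and the mutant add-back line spent at least their initial passages after thawing on feeder layers of mouse embryonic fibroblasts. Ko or mutant add-back cells thus differ from wild-type or wild-type add-back cells in both Snf2h and culture history. In comparisons between them these cannot be told apart. The labels call the replicates biological but do not say whether they are separate cultures, so the p-values measure the spread between these libraries. How the deletion was made, what drives the add-backs, which residue is mutated and whether a line is 1 clone are not stated in the labels.

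Totals ranged from 15.3 to 37.0 M counts and fell into 3 sets, here called low (15.3 to 19.0 M, 11 libraries), middle (22.9 to 25.3 M, 4 libraries) and high depth (31.0 to 37.0 M, 3 libraries). The sets were defined from the totals and are not groups of the study. Libraries of the same group in different sets differed more than libraries of the same group within the low or the middle set. A chi-square per gene between pairs was 31.0 to 69.2 across sets, against 1.48 to 14.0 within the low and 1.87 to 2.55 within the middle set. Within the high set it was 15.9 to 40.8, which overlaps the range across sets. This chi-square is taken on raw counts and also grows with depth. Groups were therefore compared within a set. The low set holds wild type replicates 6 to 8, ko replicates 3 to 5 and both add-backs, the middle set wild type and ko replicates 1 and 2, and the high set wild type replicates 3 to 5. Smarca5 itself was at 8.71 to 10.1 CPM (counts per M counts of the library, after scaling) in the 5 ko libraries and at 139.7 to 215.5 CPM in the 8 wild-type ones. It stood at 83.8 to 90.2 CPM in the wild-type add-back and at 48.4 and 68.6 CPM in the mutant add-back. Loss and re-expression thus followed the labels, but the level does not show which add-back is mutant. The ES markers Pou5f1, Sox2 and Nanog had counts in every library.

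Signals reach these genes mainly through the ERK, p38 and JNK kinases, which act on serum response factor with its ternary complex partners and on CREB and ATF factors bound at the promoters. The Fos and Jun proteins pair up as AP-1, EGR proteins bind GC-rich sites, and DUSP1 and the Sprouty proteins damp the kinases again. In ES cells the ERK pathway is driven largely by FGF4 and serum and pushes the cells towards differentiation.

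The genes are short. Their median span from first to last exon was 3286 bases, against 22110.5 bases over the tested genes with a position, and 91.7% of those were longer than that median. Jun, Junb and Ier2 have 1 exon each, and Atf3 has the longest span, 13038 bases. Fos lies at chr12:85473890-85477274, Jun at chr4:95049036-95052222, Atf3 at chr1:191170296-191183333 and Dusp1 at chr17:26505591-26508472, all on GRCm38.p6 as whole gene spans from RefSeq.

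The promoters of these 4 genes are shown because Fos, Jun and Atf3 rose and Dusp1 fell in ko cells of the low set. Each is the 200 bases before the transcription start in RefSeq (GRCm38.p6), read 5′ to 3′ on the gene's strand. Capitals mark matches, on either strand, to the cAMP response element (CRE) TGACGTCA, its TGACG core, the AP-1 site TGACTCA, the AP-1 variant TGACATCA, the EGR sites GCGGGGGCG and GCGTGGGCG, the TATA box TATAAA, and the CArG box of serum response factor. Any CRE also holds the TGACG core. The windows lie at chr12:85473690-85473889 (plus strand), chr4:95052223-95052422 (minus), chr1:191183334-191183533 (minus) and chr17:26508473-26508672 (minus).
Fos: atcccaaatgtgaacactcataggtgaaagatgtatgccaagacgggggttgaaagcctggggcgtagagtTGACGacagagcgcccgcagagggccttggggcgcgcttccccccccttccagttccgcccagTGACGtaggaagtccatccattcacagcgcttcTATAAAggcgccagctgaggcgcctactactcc
Jun: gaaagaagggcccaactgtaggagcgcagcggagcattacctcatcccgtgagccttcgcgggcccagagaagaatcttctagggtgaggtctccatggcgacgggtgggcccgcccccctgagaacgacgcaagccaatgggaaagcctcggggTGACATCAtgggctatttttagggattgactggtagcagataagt
Atf3: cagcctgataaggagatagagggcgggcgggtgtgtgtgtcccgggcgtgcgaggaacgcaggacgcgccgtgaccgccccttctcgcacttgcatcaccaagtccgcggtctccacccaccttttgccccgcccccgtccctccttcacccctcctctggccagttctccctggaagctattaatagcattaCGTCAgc
Dusp1: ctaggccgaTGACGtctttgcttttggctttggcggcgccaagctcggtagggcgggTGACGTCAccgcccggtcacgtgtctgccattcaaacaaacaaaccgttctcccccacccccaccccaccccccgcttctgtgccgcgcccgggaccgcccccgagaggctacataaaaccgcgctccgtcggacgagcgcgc
The Fos window holds 2 TGACG cores, which begin 129 and 66 bases before the start, and a TATA box that begins 33 bases before it. The Jun window holds TGACATCA from 45 bases before the start. This motif was added after the sequences were seen, so its presence there is not a test. It occurs in 2.66% of the 32851 windows of this length in the RefSeq table. The Atf3 window has a single TGACG core, on the reverse strand and 7 bases before the start. The Dusp1 window holds a whole CRE from 143 bases before the start, which 1.47% of all windows have, and a further TGACG core from 191 bases before it. Windows were found for 8 of the 10 genes, and 6 of these 8 have at least 1 TGACG core in any of their windows, against 17.5% of all 27025 genes in that table counted the same way. Egr2 has several windows. A match describes these letters and is not a measured binding site.

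At the RNA level, the genes spanned a wide range in wild-type cells. Per length, as RPKM, Ier2 had the highest level in wild-type cells of the low set, 90.7 ± 5.67 (SD, n = 3), followed by Junb at 26.9 ± 2.05, Dusp1 at 19.5 ± 1.86, Egr1 at 14.9 ± 1.39 and Ier3 at 8.95 ± 0.486. Jun at 4.50 ± 0.158 RPKM and Fos at 4.49 ± 1.06 RPKM did not differ beyond their spread, and Atf3 stood below them at 3.20 ± 0.409 RPKM. Fosb and Egr2 had the lowest levels, at 0.330 ± 0.0285 and 0.130 ± 0.00658 RPKM. Egr2 rests on 4 to 24 counts per library and Fosb on 8 to 48, so counting error weighs on both.

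**Figure D1:**
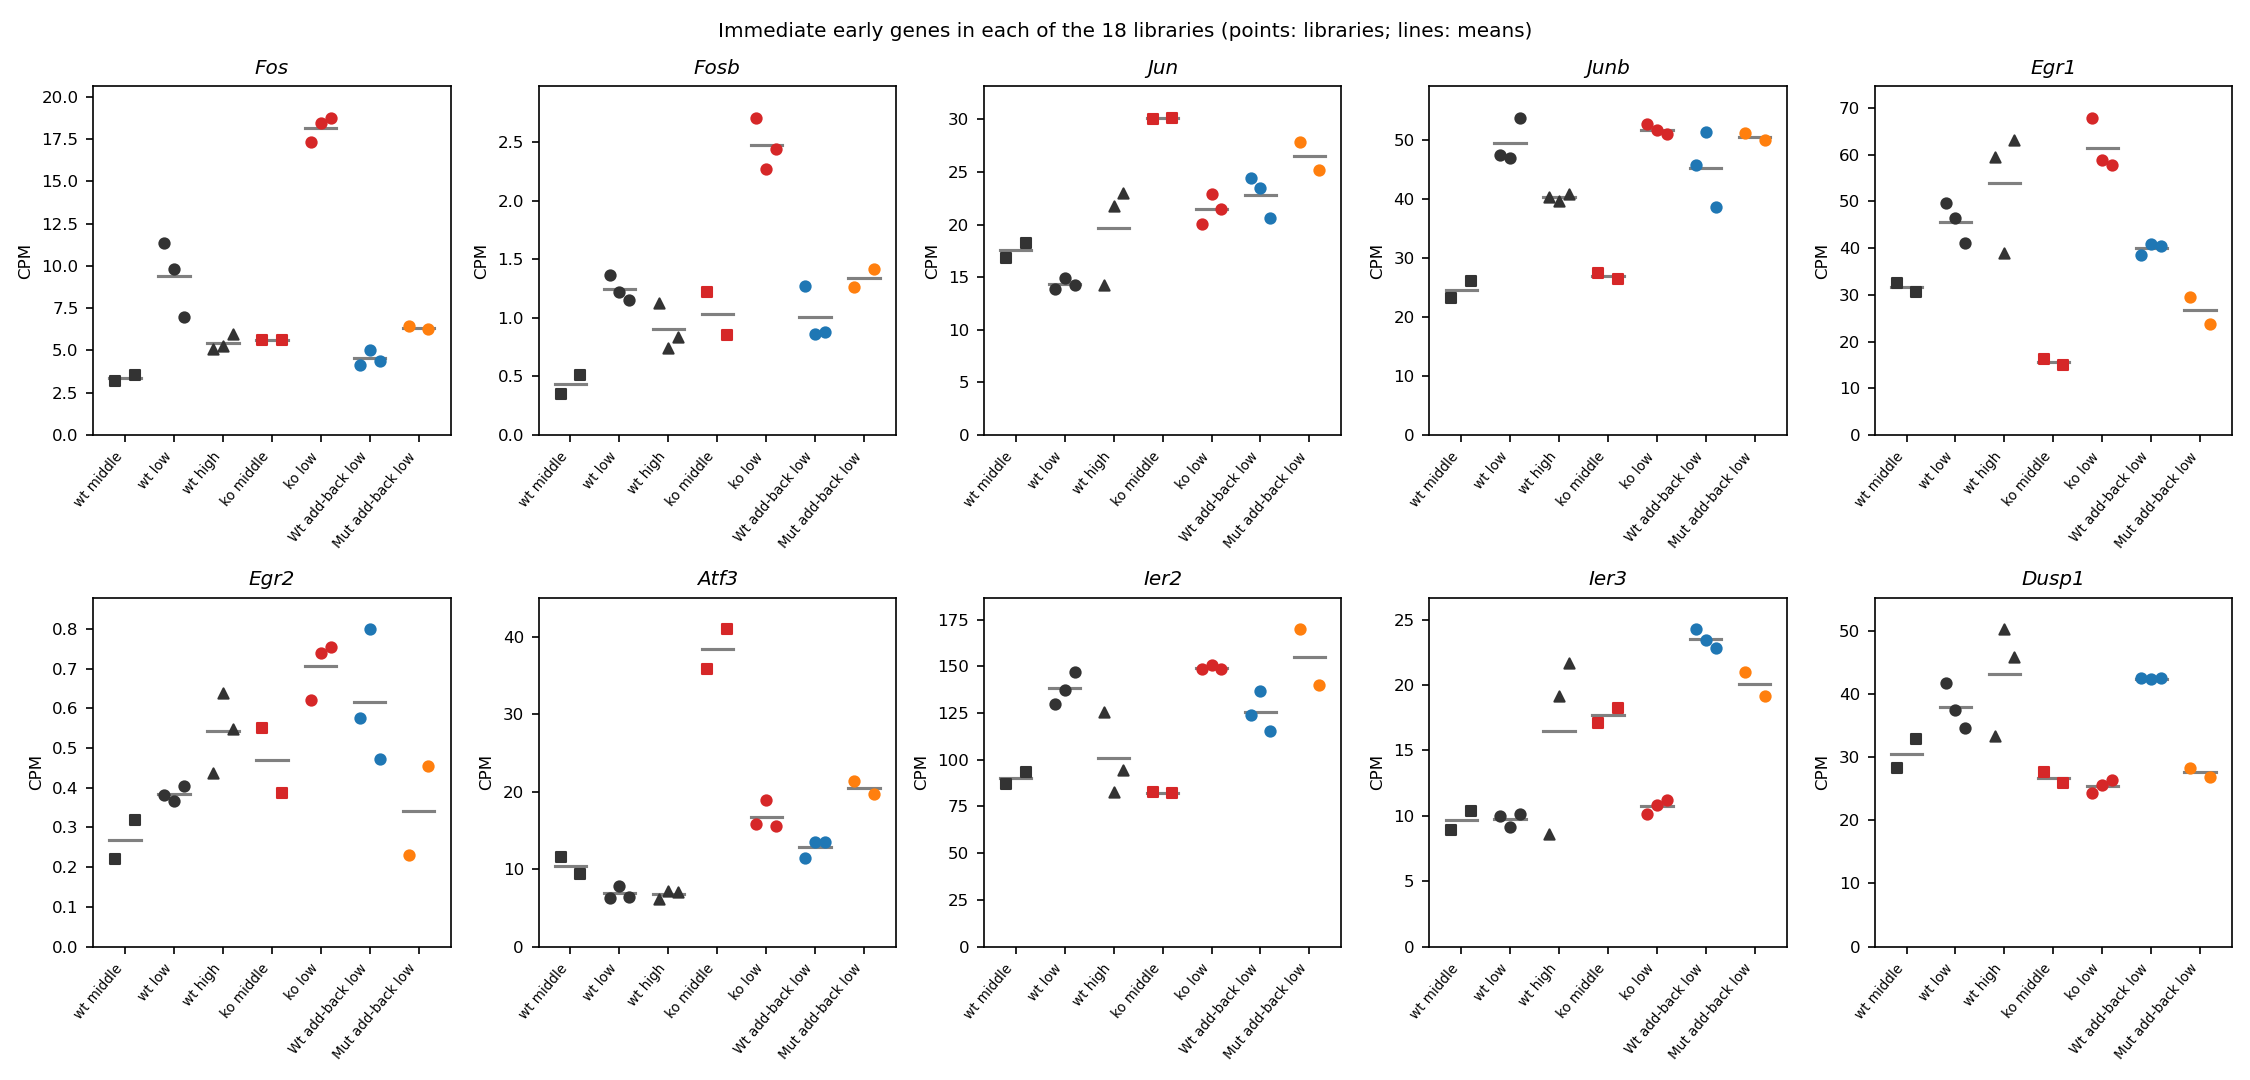
CPM of each of the 10 genes (vertical axes, linear, from 0) in the 18 libraries, by group and depth set (horizontal axis). Points are libraries (circles low, squares middle, triangles high depth; black wild type, red ko, blue wild-type add-back, orange mutant add-back) and lines are means. Fos stands highest in the ko libraries of the low set and Atf3 in the ko libraries of the middle set, while Dusp1 in ko libraries of either set lies at 24.3 to 27.6 CPM.

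Loss of Snf2h went with higher levels of Fos, Fosb, Jun and Atf3 in both sets where ko and wild type can be compared. In the low set 7 of the 10 genes passed the test, 6 higher (Fos, Fosb, Jun, Egr1, Egr2 and Atf3) and 1 lower (Dusp1) in ko cells, and in the middle set 6 passed, 5 higher (Fos, Fosb, Jun, Atf3 and Ier3) and 1 lower (Egr1). Over all tested genes 60.1% passed in the low set (29.3% higher and 30.8% lower) and 61.8% in the middle set (29.9% higher and 31.9% lower), so the number of members called is close to the share of all genes called. The median log2 difference of the 10 genes was 0.51 in the low and 0.75 in the middle set, against -0.01 and -0.03 over all tested genes. Ko and wild-type libraries did not overlap for 9 of the 10 genes in the low set, against 73.8% of all genes, and for all 10 in the middle set, against 86.4%.

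Fos, the inducible AP-1 subunit, was at 11.4, 9.82 and 6.998 CPM in the wild-type libraries of the low set and at 17.3, 18.4 and 18.8 CPM in the ko libraries. Every ko library lay above every wild-type library, and the log2 fold change was 0.95 ± 0.13 (SE, adjusted p = 2.2e-06, edgeR quasi-likelihood test). In the middle set Fos was at 3.21 and 3.57 CPM in wild type and at 5.63 and 5.61 CPM in ko cells, a log2 fold change of 0.73 ± 0.18 (adjusted p = 0.0018). The direction was therefore shared by both sets, although the ko libraries of the middle set lay below all 3 wild-type libraries of the low set.

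Fosb, the closest relative of Fos, followed the same order at a much lower level. It was at 1.37, 1.22 and 1.16 CPM in wild type and 2.71, 2.28 and 2.44 CPM in ko cells of the low set (log2 fold change 0.98 ± 0.23, adjusted p = 0.00084). Middle-set levels were lower, at 0.351 and 0.516 CPM in wild type and at 1.22 and 0.850 CPM in ko cells (1.23 ± 0.34, adjusted p = 0.0036). That last call rested on ko replicate 1, without which the adjusted p was 0.0576.

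Jun, the partner that Fos proteins need to bind DNA, was at 13.9, 14.9 and 14.3 CPM in wild type and 20.0, 22.9 and 21.5 CPM in ko cells of the low set. The log2 fold change was 0.58 ± 0.13 (adjusted p = 0.00073). Middle-set Jun went from 16.9 and 18.3 CPM to 30.0 and 30.2 CPM, a change of 0.78 ± 0.15 (adjusted p = 0.00013), and the groups were again apart. Junb, a Jun protein that is often the weaker activator, did not pass in either set: its log2 differences were 0.07 ± 0.08 (adjusted p = 0.49) and 0.13 ± 0.10 (adjusted p = 0.28).

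Atf3, a stress-induced repressor that pairs with Jun proteins, had the largest difference of the 10 genes in both sets. It was at 6.29, 7.87 and 6.42 CPM in wild type and 15.9, 18.9 and 15.6 CPM in ko cells of the low set (log2 fold change 1.29 ± 0.12, adjusted p = 1.7e-08). Levels in the middle set were 11.6 and 9.33 CPM in wild type and 35.8 and 41.0 CPM in ko cells (1.88 ± 0.13, adjusted p = 1.3e-10). All 5 ko libraries stood above all 8 wild-type libraries, whatever the set.

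Egr1, the zinc finger factor often read as a marker of recent ERK activity, went opposite ways in the 2 sets. It was at 49.6, 46.4 and 41.1 CPM in wild type and 67.9, 58.8 and 57.7 CPM in ko cells of the low set, 0.43 ± 0.13 higher on the log2 scale (adjusted p = 0.00996). In the middle set it was at 32.6 and 30.7 CPM in wild type and 16.2 and 15.0 CPM in ko cells, a log2 fold change of -1.02 ± 0.17 (adjusted p = 6.1e-05). The low-set rise was lost without ko replicate 3, where the log2 fold change was 0.34 and the adjusted p 0.0555. Egr2 differed by 0.87 ± 0.35 in the low set (adjusted p = 0.041) and by 0.78 ± 0.43 in the middle set (adjusted p = 0.15), and leaving out any of wild type replicates 6, 7 and 8 or ko replicates 4 and 5 raised the first of these to adjusted p = 0.068 to 0.0945. With DESeq2 it was 0.129, and without a filter on low counts 0.091.

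Dusp1, which removes the activating phosphates from p38, JNK and ERK, was the 1 gene of the 10 that fell in the low set. It was at 41.8, 37.5 and 34.6 CPM in wild type and 24.3, 25.5 and 26.4 CPM in ko cells, a log2 fold change of -0.58 ± 0.11 (adjusted p = 0.00019). In the middle set the wild-type libraries were themselves lower, at 28.2 and 32.8 CPM, against 27.6 and 25.9 CPM in ko cells, and the difference of -0.19 ± 0.13 did not pass (adjusted p = 0.23). Between the sets, Dusp1 differed by 0.07 ± 0.13 on the log2 scale within ko cells (adjusted p = 0.67).

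Ier3, a survival factor induced by ERK and NF-kappaB, differed by 0.14 ± 0.25 in the low set (adjusted p = 0.65) and was higher in ko cells of the middle set, where it went from 8.91 and 10.4 CPM to 17.1 and 18.2 CPM (0.87 ± 0.27, adjusted p = 0.011). Without wild type replicate 1 that adjusted p was 0.0757. Ier2, the most abundant of the 10, stayed within 0.11 ± 0.11 in the low set (adjusted p = 0.40) and -0.13 ± 0.14 in the middle set (adjusted p = 0.41). In the middle set all ko libraries of Ier2 nonetheless lay below the wild-type ones, at 82.5 and 82.0 CPM against 87.0 and 93.4 CPM.

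**Figure D2:**
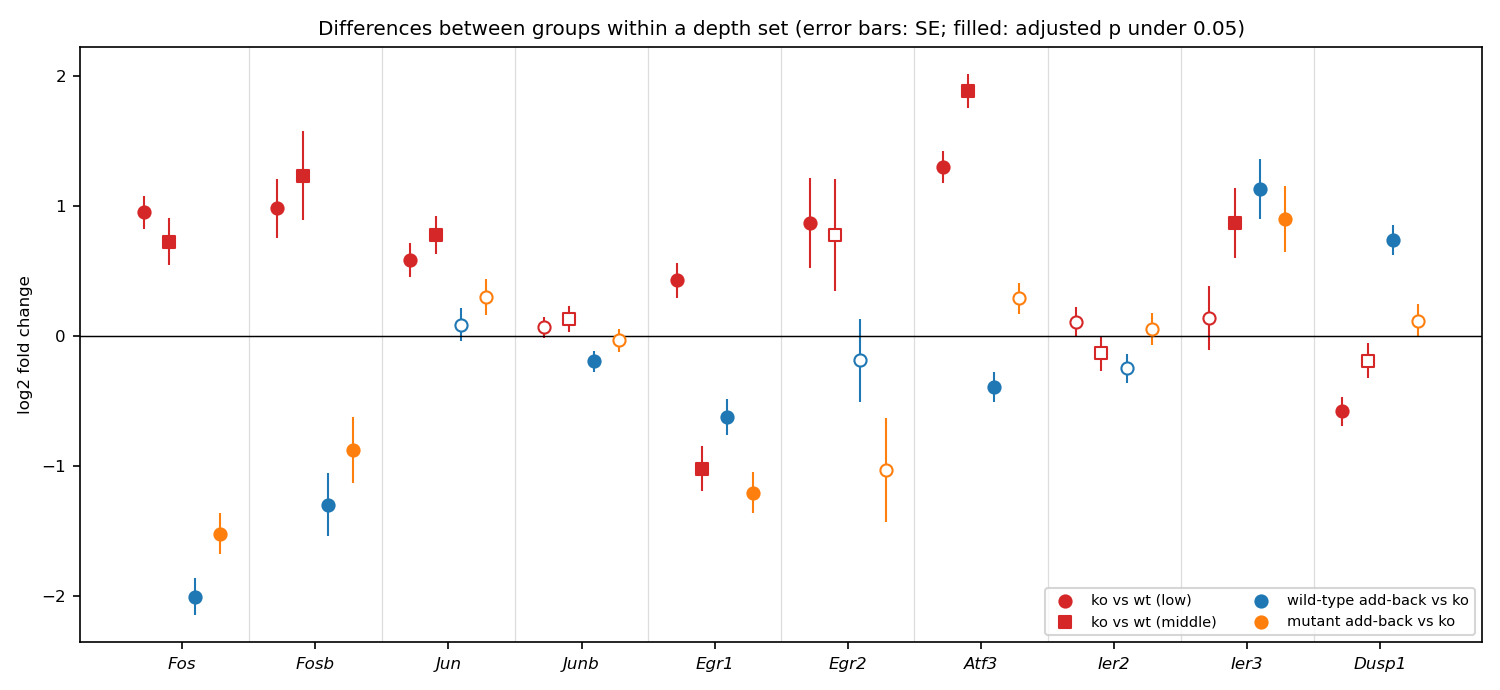
Log2 fold changes (vertical axis) of the 10 genes (horizontal axis) for ko against wild type in the low set (red circles) and middle set (red squares), and for the wild-type add-back (blue) and mutant add-back (orange) against ko in the low set. Bars are standard errors and filled symbols passed at an adjusted p under 0.05. Fos, Fosb, Jun and Atf3 lie above 0 in both ko comparisons, and Fos and Fosb below 0 in both add-back comparisons.

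Pooled over the sets, with a single mean per group, 5 of the 10 genes passed, against 55% of all genes: Fos at 1.04 ± 0.32 (adjusted p = 0.011), Fosb at 1.05 ± 0.31 (adjusted p = 0.00695), Jun at 0.54 ± 0.14 (adjusted p = 0.0027), Atf3 at 1.72 ± 0.22 (adjusted p = 2.6e-06) and Dusp1 at -0.55 ± 0.11 (adjusted p = 0.0004). Egr1, which passed with opposite signs within the sets, was at -0.08 ± 0.30 (adjusted p = 0.85), and Egr2 and Ier3, called in 1 set each, did not pass either.

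Whether the difference between ko and wild type itself differed between the sets was tested by an interaction, which called 2 of the 10 genes, against 26.7% of all genes (13.2% with a higher and 13.6% with a lower middle-set difference). For Egr1 the middle-set difference was 1.45 ± 0.22 lower on the log2 scale than the low-set difference (adjusted p = 6.9e-05). For Atf3 it was 0.59 ± 0.18 higher (adjusted p = 0.020), and this call was lost without wild type replicate 2, wild type replicate 7 or ko replicate 2 (adjusted p = 0.137, 0.0744 and 0.0935). The other 8 genes gave differences between the sets from -0.25 (Ier2) to 0.73 (Ier3), none of which passed in this fit. The count moved with the libraries fitted: the interaction called 4 of the 10 genes when the high-depth wild type was left out and 5 with only the libraries compared. The number over all genes rose too, to 7231 with only the libraries compared, against 3986 in the main fit. For Fos the difference was -0.22 ± 0.22 (adjusted p = 0.50) and for Jun 0.19 ± 0.20 (adjusted p = 0.51).

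**Figure D3:**
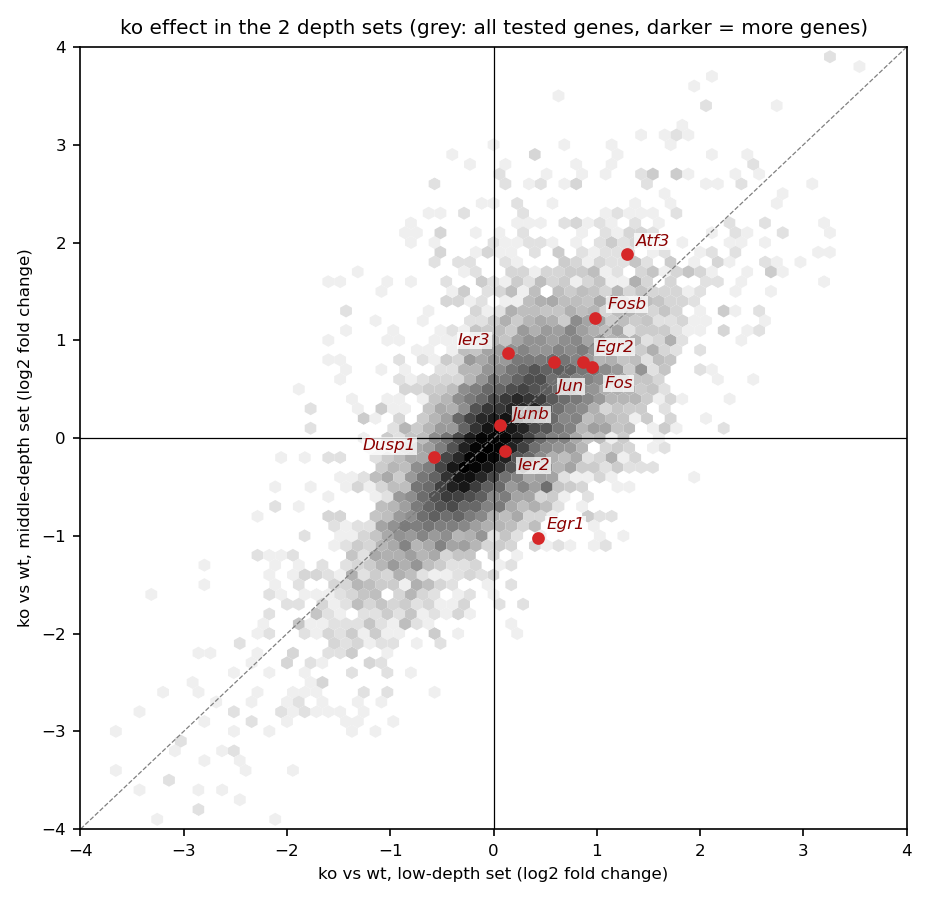
Log2 fold change of ko against wild type in the low set (horizontal axis) and the middle set (vertical axis). Grey hexagons are tested genes, darker where more genes fall, red points are the 10 immediate early genes, and the dashed line marks equal changes. Egr1 lies in the quadrant of opposite signs, at 0.43 and -1.02.

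These genes also differed between depth sets within a genotype. In wild-type cells 7 of the 10 genes differed between the middle and the low set, 1 higher and 6 lower in the middle set, against 43.5% of all genes (21.6% higher and 21.9% lower). Fos was 1.47 ± 0.17 lower on the log2 scale in the middle set, Fosb 1.503 ± 0.32 lower, Junb 1.00 ± 0.09 lower, Ier2 0.61 ± 0.13 lower, Egr1 0.53 ± 0.15 lower and Dusp1 0.31 ± 0.12 lower, while Atf3 was 0.61 ± 0.14 higher. The Egr1 call was lost without wild type replicate 2 (adjusted p = 0.078), and that of Dusp1 without wild type replicate 1, 6 or 7 (adjusted p = 0.323, 0.17 and 0.0754), with library size alone as scaling, or with either other filter (adjusted p = 0.0557 to 0.101).

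In ko cells 8 of the 10 genes differed between the same sets, 3 higher and 5 lower in the middle set, against 43.8% of all genes (20.3% higher and 23.5% lower). Fos, Fosb, Junb, Egr1 and Ier2 were lower in the middle set, by 1.69 ± 0.15, 1.25 ± 0.25, 0.94 ± 0.09, 1.98 ± 0.16 and 0.86 ± 0.13 on the log2 scale. Jun, Atf3 and Ier3 were higher there, by 0.49 ± 0.13, 1.19 ± 0.11 and 0.72 ± 0.25. The call of Ier3 was lost without ko replicate 1, 2 or 3 (adjusted p = 0.0694, 0.105 and 0.0603) and without a filter on low counts (adjusted p = 0.0759). Junb shows the pattern at its plainest: wild type and ko cells shared a level of 47.0 to 53.8 CPM in the low set and of 23.2 to 27.5 CPM in the middle set.

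Wild-type libraries of the high set differed from those of the low set for 5 of the 10 genes, against 53.9% of all genes. Fos, Junb and Ier2 were lower, as 26.6% of all genes were, and Jun and Ier3 higher, as 27.3% were. Ier3 was uneven within the high set, at 8.64, 19.2 and 21.7 CPM, and its call was lost without wild type replicate 5 (adjusted p = 0.052) or with only the libraries compared (adjusted p = 0.0531). Egr1 was uneven there too, at 59.5, 39.0 and 63.2 CPM. What distinguishes the sets beyond their totals is not given in the labels.

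The add-back groups were compared with the ko libraries of the low set, which both comparisons share. Fos was lower in both add-backs than in these ko libraries. With wild-type Snf2h 7 of the 10 genes passed, 2 higher (Ier3 and Dusp1) and 5 lower (Fos, Fosb, Junb, Egr1 and Atf3), against 58.6% of all genes (29.7% higher and 28.8% lower), and libraries did not overlap for 7 genes, against 70.2%. With mutant Snf2h 4 passed, 1 higher (Ier3) and 3 lower (Fos, Fosb and Egr1), against 14.6% of all genes (6.83% higher and 7.8% lower), and libraries did not overlap for 8 genes, against 47.6%. The count for the mutant add-back was 2 without ko replicate 3 or ko replicate 5. Without ko replicate 3, 1104 of all genes were called, against 2180 in the main fit. The count was 0 when each group had a single mean over the sets, a fit that called 0.322% of all genes.

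Fos was at 4.15, 5.04 and 4.38 CPM in the wild-type add-back and at 6.43 and 6.26 CPM in the mutant add-back. All of these lay below the 17.3 to 18.8 CPM of the ko libraries of the low set. The ko libraries of the middle set, at 5.63 and 5.61 CPM, lay below the mutant add-back. The log2 fold changes against ko were -2.003 ± 0.14 (adjusted p = 2.2e-10) and -1.52 ± 0.15 (adjusted p = 1.9e-06). Both add-backs also lay below the wild-type libraries of the same set, with log2 differences of -1.05 ± 0.15 and -0.57 ± 0.16 (adjusted p = 3.4e-05 and 0.0044). Fosb was at 1.28, 0.861 and 0.876 CPM in the wild-type add-back and 1.26 and 1.42 CPM in the mutant add-back, a fall of 1.29 ± 0.24 and 0.88 ± 0.25 from ko (adjusted p = 9.9e-05 and 0.024). The second of these was lost without ko replicate 3, ko replicate 5 or mutant add-back replicate 1 (adjusted p = 0.0849, 0.0505 and 0.232).

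Dusp1 separated the add-backs. It was at 42.5, 42.3 and 42.5 CPM in the wild-type add-back, where wild-type cells of the low set had 34.6 to 41.8 CPM. That difference, 0.16 ± 0.11 on the log2 scale, did not pass (adjusted p = 0.32). In the mutant add-back Dusp1 was at 28.3 and 26.9 CPM, near the 24.3 to 26.4 CPM of ko cells of the low set. The wild-type add-back exceeded ko by a log2 difference of 0.74 ± 0.11 (adjusted p = 1.3e-05), and the mutant add-back differed from ko by 0.12 ± 0.13 (adjusted p = 0.58). The test between the add-backs gave 0.62 ± 0.13 (adjusted p = 0.00032), which also passed when each group had a single mean over the sets (adjusted p = 0.0115).

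Atf3 was at 11.4, 13.5 and 13.5 CPM in the wild-type add-back and 21.4 and 19.6 CPM in the mutant add-back. In ko cells of the low set it was at 15.6 to 18.9 CPM. It fell by 0.39 ± 0.12 from ko with wild-type Snf2h (adjusted p = 0.0061, but 0.0665 when ko replicate 4 was left out), and differed by 0.29 ± 0.12 with mutant Snf2h (adjusted p = 0.11). Between the add-backs the log2 difference was -0.68 ± 0.13 (adjusted p = 9.3e-05). In both add-backs Atf3 stayed above the 6.29 to 7.87 CPM of wild-type cells of the low set. The log2 differences were 0.90 ± 0.13 and 1.58 ± 0.13 (adjusted p = 3.1e-05 and 3.1e-09). Wild type of the middle set had 11.6 and 9.33 CPM, which overlaps the wild-type add-back. With a single mean per group over the sets, the differences from wild type were 0.73 ± 0.26 and 1.41 ± 0.29 (adjusted p = 0.18 and 0.00063).

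Egr1 was at 38.6, 40.9 and 40.4 CPM in the wild-type add-back and at 29.5 and 23.8 CPM in the mutant add-back, below every ko library of the low set. It fell by 0.62 ± 0.14 with wild-type and by 1.20 ± 0.16 with mutant Snf2h (adjusted p = 0.00068 and 6.6e-05). Against wild-type cells the wild-type add-back differed by -0.19 ± 0.14 (adjusted p = 0.34) and the mutant add-back by -0.78 ± 0.16 (adjusted p = 0.00039).

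Ier3 was higher in both add-backs than in ko and wild-type cells of the low set. It was at 24.3, 23.4 and 22.9 CPM in the wild-type add-back and at 21.0 and 19.1 CPM in the mutant add-back. Low-set ko cells had 10.2 to 11.2 CPM and low-set wild-type cells 9.15 to 10.1 CPM. Outside the low set Ier3 reached 18.2 CPM in ko cells and 21.7 CPM in wild type. The changes from ko in the low set were 1.13 ± 0.23 (adjusted p = 0.00048) and 0.90 ± 0.25 (adjusted p = 0.026). The call for the mutant add-back was lost without any 1 of the 5 libraries compared (adjusted p = 0.0522 to 0.241) and without a filter on low counts (adjusted p = 0.0788). Jun, which had risen in ko cells, did not pass against ko in either add-back. It was at 24.5, 23.4 and 20.6 CPM and at 27.8 and 25.2 CPM, differed from ko by 0.09 ± 0.13 and 0.30 ± 0.14 (adjusted p = 0.57 and 0.15), and exceeded wild type by log2 differences of 0.67 ± 0.13 and 0.88 ± 0.14 (adjusted p = 0.00097 and 2.3e-05).

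The small fall of Junb with wild-type Snf2h, 0.19 ± 0.08 on the log2 scale (adjusted p = 0.048), did not pass when wild-type add-back replicate 1 or 3 or any of the 3 ko libraries was left out (adjusted p = 0.0827 to 0.325), or with either other filter (adjusted p = 0.0646 and 0.0766). Ier2 and Egr2 did not pass against ko in either add-back.

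Directly between the add-backs, 5 of the 10 genes differed, against 60.6% of all genes (30% higher and 30.6% lower with wild-type Snf2h): Egr1 and Dusp1 were higher and Fos, Atf3 and Ier2 lower with wild-type Snf2h. The difference of Fos, -0.49 ± 0.17 (adjusted p = 0.020), did not pass when replicate 1 or 3 of the wild-type add-back or either mutant library was left out (adjusted p = 0.0512 to 0.0959). That of Egr1, 0.58 ± 0.16 (adjusted p = 0.0044), was lost without mutant add-back replicate 3 (adjusted p = 0.0802), and that of Ier2, -0.30 ± 0.12 (adjusted p = 0.042), without replicate 1 or 3 of the wild-type or replicate 1 of the mutant add-back (adjusted p = 0.0835, 0.135 and 0.488) or with either other filter (adjusted p = 0.142 and 0.0517). Without wild-type add-back replicate 1 or 3, 3 of the 10 genes differed. The share of all genes called in these fits is not given here.

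Set against wild-type cells of the low set, the wild-type add-back differed for 4 of the 10 genes (Fos lower, Jun, Atf3 and Ier3 higher), against 22.5% of all genes (10.7% higher and 11.8% lower). The mutant add-back differed for 6 (Fos, Egr1 and Dusp1 lower, Jun, Atf3 and Ier3 higher), against 60.3% (30.2% higher and 30.1% lower). With a single mean per group over the sets, the wild-type add-back differed from wild type for 0 of the 10 genes (1.6% of all genes) and the mutant add-back for 3, Jun, Atf3 and Dusp1 (45.5% of all genes). The same fit called 4 of the 10 genes for ko and the wild-type add-back (Fos, Atf3, Ier3 and Dusp1, 45% of all genes) and 1 between the add-backs (Dusp1, 37% of all genes). For ko and the mutant add-back it called 0 of the 10 (0.322% of all genes), with Fos at -1.04 ± 0.51 (adjusted p = 0.342).

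AP-1 is a dimer, so the make-up of the Fos and Jun families was described from length-corrected levels, with Fosl1, Fosl2 and Jund added to complete the families. Among the Fos family, Fos itself made up 73.7% ± 6.08 (SD, n = 3) of the summed RPKM in wild type and 72.5% ± 1.48 in ko cells of the low set. Its share in the middle set was 53.9% ± 1.59 (n = 2) in wild type and 39.6% ± 0.856 in ko cells, where Fosl2 reached 36.9% ± 0.566. In the add-backs Fos made up 47.9% ± 2.86 and 46.8% ± 3.58.

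In the Jun family the share of Jund, the member that is expressed without a stimulus, was larger in ko cells of both sets. It was 35.5% ± 0.826 in wild type and 49.5% ± 1.43 in ko cells of the low set, and 47.9% ± 1.86 and 61.1% ± 0.721 in the middle set. The wild-type add-back had 35.9% ± 1.98 and the mutant add-back 55.0% ± 0.297. Jund RNA itself rose in ko cells by a log2 difference of 0.98 ± 0.11 in the low set (adjusted p = 5.8e-07) and 1.12 ± 0.14 in the middle set (adjusted p = 9.7e-07). It was lower in the wild-type than in the mutant add-back, by a log2 difference of -1.28 ± 0.12 (adjusted p = 5.3e-08).

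**Figure D4:**
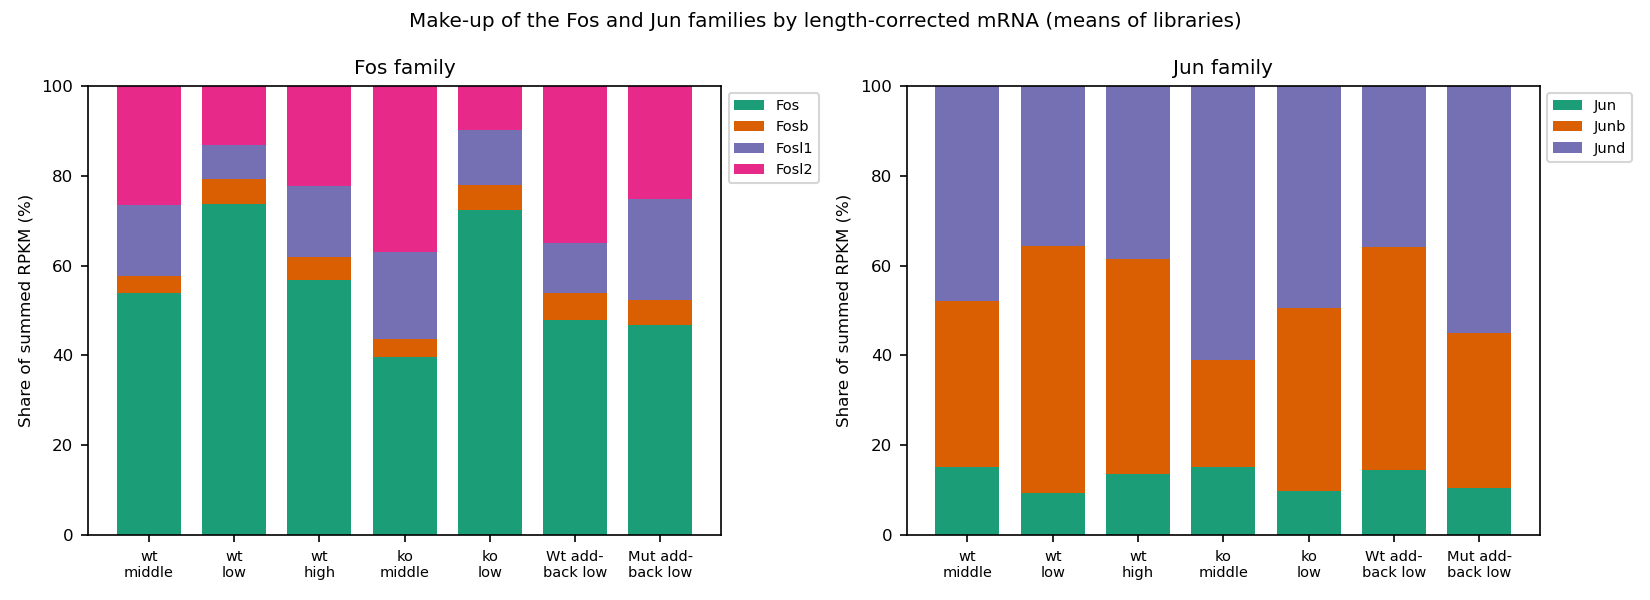
Share of each gene in the summed RPKM of the Fos family (left) and the Jun family (right), as means over the libraries of each group and depth set (horizontal axis); bars add up to 100%. Fos makes up most of its family in the low set in wild type and ko cells (73.7% and 72.5%), and Jund most of the Jun family in ko cells of the middle set and in the mutant add-back (61.1% and 55.0%).

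A wider list of 25 other immediate early genes, of which 24 were tested and Egr4 was not, did not move in 1 direction. In the low set 9 were higher and 5 lower in ko cells, and in the middle set 15 were higher and 5 lower, with medians of 0.19 and 0.93 on the log2 scale. Of all tested genes 29.3% were higher and 30.8% lower in the low set, and 29.9% and 31.9% in the middle set. Myc, which drives growth and ES cell self-renewal, fell by 1.66 ± 0.11 and 1.31 ± 0.14 (adjusted p = 1.1e-10 and 7.9e-08). Btg2, an antiproliferative p53 target, rose by 1.52 ± 0.11 and 1.70 ± 0.13 (adjusted p = 6.8e-10 and 1.2e-09), and Arc, a synaptic gene, by 0.45 ± 0.08 and 1.16 ± 0.10 (adjusted p = 3.1e-05 and 2.2e-09). Nfkbia, the inhibitor of NF-kappaB, fell by 0.22 ± 0.08 and 1.11 ± 0.09 (adjusted p = 0.017 and 1.4e-09).

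Among 12 factors that act on these promoters, 2 rose and 2 fell in the low set and 5 rose and 3 fell in the middle set. The shares of all genes called, up or down, were 60.1% in the low and 61.8% in the middle set. Creb1 and Atf1, which bind CRE sites, were lower in ko cells of both sets, Creb1 by 0.36 ± 0.07 and 0.89 ± 0.08 and Atf1 by 0.61 ± 0.07 and 0.64 ± 0.08 on the log2 scale. Fhl2, a cofactor of serum response factor, rose by 0.75 ± 0.19 and 2.35 ± 0.18. Nab2, a corepressor that binds EGR proteins, was higher by 0.85 ± 0.09 and 1.09 ± 0.12. In the low set Nab2 stood at 19.1 CPM on average in wild type, 34.5 CPM in ko cells, 16.5 CPM in the wild-type add-back and 37.8 CPM in the mutant add-back.

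Of 21 kinases and adaptors of the ERK, JNK and p38 cascades, 6 rose and 4 fell in the low set, and 4 rose and 3 fell in the middle set. Called genes of either direction made up 60.1% and 61.8% of all genes in these sets. The receptor gene Egfr rose most clearly, by 1.38 ± 0.14 and 2.03 ± 0.16 (adjusted p = 5.9e-08 and 7.0e-10). Rps6ka1, a kinase activated by ERK, rose by 0.32 ± 0.05 and 0.74 ± 0.06, and the receptor gene Fgfr1 rose by 0.25 ± 0.06 in the low set and fell by 0.49 ± 0.07 in the middle set. Of 14 feedback genes that ERK activity induces, 1 rose and 5 fell in the low set, and 5 rose and 4 fell in the middle set. The inhibitors Spry2 and Spred1 were lower in both, Spry2 by 0.60 ± 0.06 and 0.38 ± 0.07 and Spred1 by 0.51 ± 0.10 and 0.58 ± 0.12. Spry1 fell by 0.59 ± 0.09 in the low set and differed by -0.20 ± 0.10 in the middle set (adjusted p = 0.092). Phlda1 fell by 0.23 ± 0.09 in the low set and rose by 1.93 ± 0.12 in the middle set (adjusted p = 0.037 and 2.2e-11), and Etv4, an ETS factor, differed by -0.01 ± 0.07 (adjusted p = 0.87) and rose by 1.06 ± 0.09 (adjusted p = 2.4e-09). Dusp4, a nuclear phosphatase related to Dusp1, differed by -0.05 ± 0.10 in the low set (adjusted p = 0.69) and rose by 1.89 ± 0.12 in the middle set (adjusted p = 2.2e-11).

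Lists of stress genes moved beside the members and between the sets, and their part in the members' differences was not tested. Of 10 heat shock genes, 5 rose and 4 fell in ko cells of the low set, and 4 rose and 4 fell in the middle set. Among all tested genes 60.1% and 61.8% were called in these sets. The inducible chaperone genes Hspa1a and Hspa1b rose in both, Hspa1a by 1.35 ± 0.12 and 1.15 ± 0.15 and Hspa1b by 1.46 ± 0.11 and 0.89 ± 0.14. Hsph1, a cochaperone of the same family, fell in both, by 0.59 ± 0.05 and 0.69 ± 0.06 (adjusted p = 2.5e-09 and 4.2e-09). Summed over the list, heat shock RNA was at 7810 to 8049 CPM in wild type and 6903 to 7063 CPM in ko cells of the low set, and at 6578 to 6803 and 5110 to 5153 CPM in the middle set. Between the sets, 8 of these genes in wild type and 7 in ko cells were lower in the middle set, and 0 were higher. Of all genes 21.9% in wild type and 23.5% in ko cells were lower there, and 21.6% and 20.3% higher.

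Of 12 genes of the ATF4 response, the amino acid and unfolded protein stress pathway that also induces Atf3, 10 rose and 0 fell in the low set, and 6 rose and 1 fell in the middle set. Across all genes 29.3% rose and 30.8% fell in the low set, and 29.9% and 31.9% in the middle set. Atf4 rose by 0.57 ± 0.08 and 0.62 ± 0.10 and its target Trib3 by 0.40 ± 0.10 and 0.69 ± 0.12. The stress gene Nupr1 rose by 1.75 ± 0.10 and 1.37 ± 0.11, and Asns, which makes asparagine, by 0.51 ± 0.06 and 0.24 ± 0.07. Psat1, of serine synthesis, rose by 0.80 ± 0.06 in the low set and differed by -0.11 ± 0.08 in the middle set (adjusted p = 0.22). In wild-type cells 10 of the 12 were higher in the middle than in the low set, against 21.6% of all genes. Of the 10 immediate early genes Atf3 was the 1 called higher there, while Jun differed by 0.29 ± 0.14 (adjusted p = 0.11). In the high set 10 of the 12 were again higher than in the low set and 1 was lower, against 27.3% and 26.6% of all genes. Atf3 differed by -0.01 ± 0.13 there (adjusted p = 0.94). Whether this pathway has a part in the differences of Atf3 was not tested.

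Markers of other cell types also moved with the groups, and their part in the results was not tested. In bulk RNA, fewer cells of a type and less RNA per cell cannot be told apart. Of 22 markers of embryonic fibroblasts, the feeder cells of the ko and mutant add-back lines, 19 were tested, 16 rose and 0 fell in ko cells of the low set, and 16 rose and 2 fell (Col6a2 and Pdgfrb) in the middle set. The shares of all genes were 29.3% higher and 30.8% lower in the low set, and 29.9% and 31.9% in the middle set. Mean levels in wild type and ko cells of the low set were 91.2 and 206 CPM for Vim, 15.9 and 83.9 CPM for Thbs1, 2.39 and 27.6 CPM for Fbln2, 3.26 and 18.7 CPM for Col1a1 and 0.0985 and 1.22 CPM for Col3a1. The summed level of the list was 164.1 to 167.3 CPM in wild type, 432.5 to 469.9 CPM in ko cells, 183.0 to 188.7 CPM in the wild-type add-back and 520.0 to 566.7 CPM in the mutant add-back of the low set. In the middle set it was 157.4 to 166.5 CPM in wild type and 365.8 to 384.5 CPM in ko cells. Lum had 0 counts in all ko and mutant add-back libraries and in wild type of the low and middle sets.

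The 9 endoderm markers, among them Gata6 and Gata4, were lower in ko cells of the low set and higher in ko cells of the middle set, all 9 in each case. Of all genes 30.8% were called lower in the low set and 29.9% higher in the middle set. Their sum was 2615 to 2668 CPM in wild type and 1677 to 1753 CPM in ko cells of the low set, and 1224 to 1289 and 6517 to 7008 CPM in the middle set. Each of the 9 had counts in every group and set. Egr1 had the opposite signs to these markers in both sets, and whether they are linked was not tested. Of 10 ES cell markers, 5 rose and 2 fell in the low set, and 2 rose and 6 fell in the middle set. Over all genes 60.1% and 61.8% were called in these sets.

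The 10 genes were not alike in pattern. Over the 7 means of log2 CPM per group and depth set, each centred on its own average, the root mean square distance of a member from the average of all 10 was smallest for Ier2 (0.245) and largest for Atf3 (0.794). Among 10514 other genes at 5 CPM or more, Mavs (0.0874), Stard3 (0.106), Socs3 (0.109), Slc29a3 (0.112) and Madd (0.118) had the profiles closest to that average. The genes closest to Fos were Etv1 (0.400), Axin2 (0.406) and Sema7a (0.408), and those closest to Egr1 were Snord47 (0.343), Ccnjl (0.350) and Zswim4 (0.351). These distances describe 7 means that share libraries and depth.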

How the data were processed

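RNA was measured in 18 libraries in 4 groups. The values are raw counts of reads per gene, deposited by the authors as 1 table with 1 column per library. Per the labels' protocols, polyadenylated RNA was purified with RNeasy columns and made into stranded TruSeq libraries. Per the submitters' processing notes, bcl2fastq 2.17 and STAR were used with the mm10 (GRCm38) build. How reads were assigned to genes, and whether by strand, is not stated in the sources used here.

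Totals were 15.3 to 37.0 M counts. All comparisons came from 1 fit with edgeR 4.0.16 in R 4.3.3 (robust quasi-likelihood test, two-sided), with TMM scaling, filterByExpr at a count minimum of 10, and 1 mean per group and depth set (7 means, 11 residual degrees of freedom). The sets were split at 20 and 28 M counts. Genes were called at a Benjamini-Hochberg adjusted p under 0.05 over all 14901 tested genes. SE was derived from the log2 fold change and its F statistic. CPM use TMM-scaled totals, and RPKM the exonic width in the deposited table. The pipeline was tested on simulated counts. Deviations of same-numbered libraries from their group and set means had correlations of 0.0204 to 0.174. Differently numbered libraries were not set beside them, and wild type and ko of the low set share no number. Whether the numbers pair libraries is therefore not settled, and the main fit used no pairing.

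The 10 genes, the depth sets and the gene lists were chosen with earlier results of these data known, and the lists were written from general knowledge. All 10 genes are named in every comparison, and from each list those with the smallest adjusted p in ko against wild type; 1 gene that this rule picks is not reported here. The TGACATCA motif was added after the promoter sequences were seen. Promoters came from RefSeq for 8 of the 10 genes. Alternatives covered DESeq2 1.42.0, other scalings and filters, fewer libraries, 1 mean per group with and without a replicate block, and each library left out; a lone remaining library was taken to vary like the other groups.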

Additional observations from a re-analysis of the deposited data

Results flagged for a closer look

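The difference between ko and wild type itself differed between the middle and the low depth set for 2 of the 10 genes. For Egr1 the log2 value was -1.446 (middle minus low). The gene was higher in all 3 ko libraries of the low set and lower in both ko libraries of the middle set than in any wild-type library of the same set. For Atf3 it was 0.5862, with the gene higher in ko cells of both sets. No library stood apart from its group by Dixon's criterion in the 20 group-by-gene checks that 4 or more libraries allowed. Each check pooled a group over its depth sets, which differ, so it does not speak to outliers within a set.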

How the results depend on the processing

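Scaling by RLE size factors or library size alone, DESeq2, other filters and leaving out a library reversed no direction of a called gene. The median of all genes shifted by at most 0.0734 (log2) under another scaling. DESeq2 gave no adjusted p for Fosb in the mutant add-back against ko.

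With a single mean per group over the sets, Egr1 in ko against wild type turned to -0.0764 and Junb, wild-type add-back against ko, to 0.117 (log2). Against ko that fit called 4 members with wild-type Snf2h added back, and 48 genes and 0 members with the mutant. Of the members' calls it could test, 17 held, 20 did not pass and 2 reversed. Calls of ko against wild type in the low and the middle set were set against the same pooled value. A gene called in both sets is therefore counted for each, and these are not all separate tests. That fit called 5507 genes and 1 member between the add-backs. Against wild type it called 238 genes and 0 members with wild-type Snf2h, and 3 members with the mutant. With a replicate block added to it, Egr1 stood at -0.1871 in ko against wild type and 0.3944 between wild-type add-back and ko, Junb at 0.400 in the latter, and Fos at 0.3647 and 0.7608 between each add-back (wild type, then mutant) and wild-type cells. The block gave 4, 0, 2 and 0 members where the unblocked fit gave 4, 0, 1 and 0, with 48 genes between mutant add-back and ko, 5855 between the add-backs and 1002 between wild-type add-back and wild type. The numbers mark no known pairing.

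Without the high-depth wild type, 4234 genes were called between mutant add-back and ko and 5186 between wild-type add-back and wild type, and the interaction called 4 members. With only the libraries compared, the latter comparison called 5566 genes and the interaction 7231 genes and 5 members. Leaving out each library gave 522 (without mutant add-back replicate 1) to 3444 (without its replicate 3) genes and 2 to 3 members between mutant add-back and ko, with 1104 and 1410 genes without ko replicates 3 and 4, 3 to 6 members between the add-backs, 4280 (without wild type replicate 2) to 5563 genes for wild type and 4209 (without ko replicate 1) to 5528 for ko between the sets, and 1 to 2 members for the interaction. The cause of these shifts was not tested. Depth limits Egr2 and Fosb, the members with the fewest counts.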
